A study of Mus musculus with 18 samples.

Results

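C/EBPα and C/EBPβ were compared in pre-B cells before C/EBPα was induced, over the 200-bp bins of the mouse genome (mm9) in which either factor's chromatin immunoprecipitation (ChIP-seq) library had reads piled up. A bin was compared if at least 7 reads of either library fell into it after both libraries had been brought to 4169425 reads, against a mean of 0.337 reads per bin. This rule kept 2407 of the 12361722 bins of chromosomes 1 to 19 (0.0195%). The cells were C10, a derivative of the mouse pre-B cell line HAFTL that carries a C/EBPα-estrogen receptor fusion and GFP on a retroviral transgene, and both libraries came from the 0 h time point. Both libraries came from this 1 line, the cells of both carried the fusion, and the reads do not tell the fusion from the cells' own C/EBPα. Induction elsewhere in the time course meant 100 nM β-estradiol together with IL-3 and CSF-1 (10 nM each), and control cells received 0.1% ethanol; the labels do not say whether the 0 h cells were given the solvent. C/EBPα was precipitated with antibody sc-61 and C/EBPβ with sc-150, and there was 1 library for each, without replicate and without an input control. Factor, antibody and library therefore cannot be told apart, no test between the libraries was possible, and the 95% intervals given here cover counting error only.

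C/EBPα and C/EBPβ are basic leucine zipper factors that bind DNA as homodimers, as heterodimers with each other, or with relatives such as Atf4. C/EBP dimers recognise a palindrome that opens with TTGC and closes with its reverse complement, whereas a C/EBP-Atf4 heterodimer reads a composite in which an ATF sequence takes the place of the closing part, the C/EBP-ATF response element found at genes of the amino acid and endoplasmic reticulum (ER) stress response. In haematopoiesis C/EBPα is known for driving granulocyte and monocyte fate, and C/EBPβ for inflammatory gene expression in macrophages.

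Both kinds of element are shown at genes named below, and the same 8 bases occur in more than 1 class. The sequences are 30 bases each, from the mm9 reference, 5′ to 3′ on the strand given, with the C/EBP or C/EBP-ATF element in capitals. The first 4 are palindromes at promoters with at least 2 times as many C/EBPα as C/EBPβ reads, the next 5 are C/EBP-ATF elements at or near genes of the stress response or amino acid metabolism with more C/EBPα reads over the site, the next 2 lie in bins with similar reads of both factors, and the last 2 are consensus elements at sites with more C/EBPβ reads. The elements of *Chac1* and *Herpud1* lie in shared bins (21 and 12 reads, 14 and 8) next to the C/EBPα-high bins of these genes. The *Sesn2* bin had 8 and 3 reads (interval of the ratio 0.64 to 15.6), and only 1 of the C/EBPα reads left over from the thinning.
Cotl1 (chr8:122364554-122364583, plus strand): gtctgtgcggaTTGCGCAActccgcggagg
Rad23b (chr4:55362640-55362669, plus strand): ccggctacgggTTGCGCAActcgcgccgct
Ndrg1 (chr15:66801367-66801396, plus strand): gccgccgcctgTTGCGCAAgcctttgcagg
Prmt3 (chr7:57033658-57033687, plus strand): cggcgcctcggTTGCGCAAgcgtccaagcc
Iars (chr13:49777495-49777524, plus strand): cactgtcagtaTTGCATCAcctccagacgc
Chac1 (chr2:119176774-119176803, plus strand): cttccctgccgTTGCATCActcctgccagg
Herpud1 (chr8:96910206-96910235, plus strand): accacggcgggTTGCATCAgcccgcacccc
Ddit3 (chr10:126727537-126727566, plus strand): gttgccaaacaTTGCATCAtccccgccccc
Sesn2 (chr4:132065837-132065866, minus strand): tagggctagggTTGCATCAactgcagcctc
Atf3 (chr1:193007134-193007163, plus strand): ctgggagcgcgTTGCATCAccccttttaaa
Myb (chr10:20876378-20876407, plus strand): accttgcacagTTGCGCAAtgaggttttct
Klrb1b (chr6:128789006-128789035, plus strand): cggaagcgcggTTGCGCAAcgcctaacttg
Tbl1xr1 (chr3:21834559-21834588, plus strand): cgcaatggtgaTTGCATAAcacccgcctcc

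The libraries differed in depth and read length before thinning. C/EBPα had 8651671 reads of 36 bases and C/EBPβ 4169425 reads of 40 bases on chromosomes 1 to 19, counting 1 read per position and strand. Reads in the compared bins made up 0.472% of the thinned C/EBPα library and 0.477% of the C/EBPβ library. In bins with a GC content of at least 55%, reads were 1.96 times the mean for C/EBPα and 1.63 times for C/EBPβ, and a difference in mappability between 36 and 40 bases was not tested. Of the compared bins, 355 had at least 10 reads per 10000000 in each of the 18 libraries of the time course, whatever the antibody, and 369 lay in 7 windows of 100 kb with 10 or more compared bins, 226 of these at *Sfi1* on chromosome 11. The 1847 bins outside both sets are called single-locus bins below, a rule made after the values had been seen.

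Most bins with at least 7 reads of 1 factor had fewer than 7 of the other. C/EBPα reached 7 reads in 1500 bins and C/EBPβ in 1607, and 700 bins had 7 or more of both, 46.7% of the C/EBPα and 43.6% of the C/EBPβ bins. Of all bins, 0.0121% reached 7 reads for C/EBPα and 0.0130% for C/EBPβ, far below these shares. A count under 7 is also common on recounting 1 library. The C/EBPα reads left over from the thinning reached 7 in 42.7% of the compared bins, and in 37.3% of those called C/EBPα-high below. Bins were called C/EBPα-high or C/EBPβ-high when 1 factor had at least 7 reads and at least 2 times those of the other, with counts under 3 set to 3, and shared otherwise. This gave 609 C/EBPα-high bins (25.3%), 722 C/EBPβ-high bins (30.0%) and 1076 shared bins (44.7%). Of the 1847 single-locus bins, 532 were C/EBPα-high (28.8%), 634 C/EBPβ-high (34.3%) and 681 shared. The balance between the classes depended on how the depth was made equal, since with all C/EBPα reads scaled to the depth of C/EBPβ, 275 bins were C/EBPα-high and 677 C/EBPβ-high. These classes describe the counts that made them.

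Many of the calls rested on few reads. The higher count was exactly 7 in 853 of the 2407 bins, 229 of them C/EBPα-high and 367 C/EBPβ-high, and another 2428 bins just outside the threshold had 6. The exact interval of the ratio left out equal reads in 168 C/EBPα-high bins (27.6%) and in 193 C/EBPβ-high bins (26.7%). Strongly covered bins were mostly occupied in both libraries. Among single-locus bins with 15 or more C/EBPα reads, 95 of 118 (80.5%, 95% interval 72.2 to 87.2) had 7 or more C/EBPβ reads, and among those with 15 or more C/EBPβ reads 63 of 68 (92.6%, 83.7 to 97.6) had 7 or more C/EBPα reads.

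**Figure D1:**
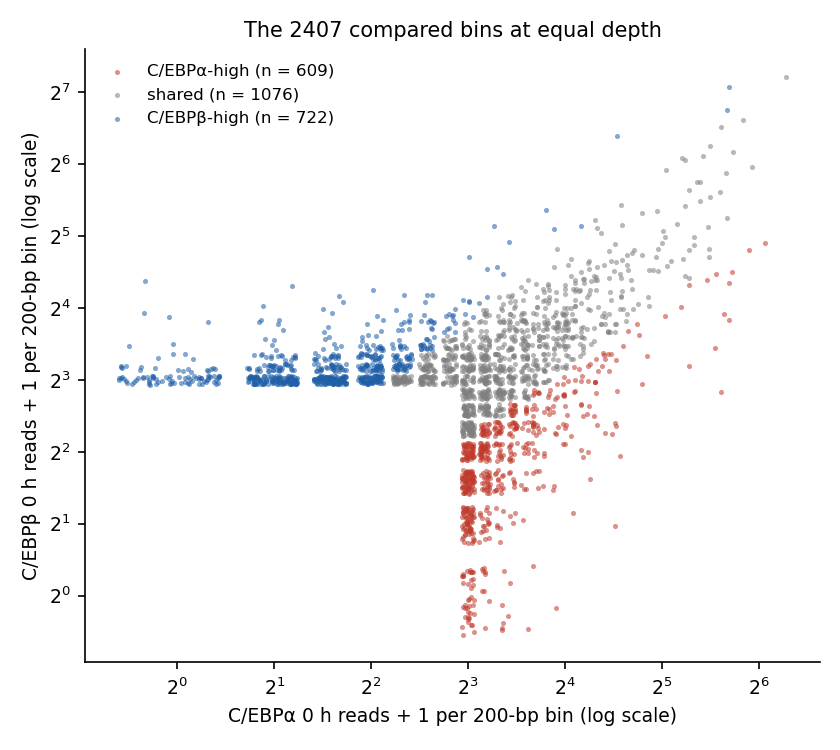
Reads per 200-bp bin of the C/EBPα 0 h library (horizontal axis) and the C/EBPβ 0 h library (vertical axis), both as reads + 1 on a log scale with a small random offset, for the 2407 compared bins coloured by class. At the lower limit of 7 reads lie 229 of the 609 C/EBPα-high and 367 of the 722 C/EBPβ-high points, and points with many reads in 1 library mostly have many in the other.

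The deeper C/EBPα library left 4482246 reads unused by the thinning, which give a second count of the same immunoprecipitation that did not choose the bins. In C/EBPα-high single-locus bins the unused reads averaged 5.65 per bin at the thinned depth, compared with 9.45 in the reads that chose them and 2.65 for C/EBPβ. In C/EBPβ-high bins the unused C/EBPα reads averaged 2.75, compared with 2.03 in the thinned reads and 8.05 for C/EBPβ. In shared bins they averaged 7.99, compared with 9.18 in the thinned reads and 8.68 for C/EBPβ. In the unused reads the C/EBPα level was therefore highest in shared bins and no longer in C/EBPα-high bins, and the distance between the factors was smaller in C/EBPα-high and C/EBPβ-high bins. No unused reads existed for C/EBPβ, so the loss on recounting could not be measured on that side.

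DNA sequence was not used by the rule, and it differed between the classes. The C/EBP consensus (TTGCNNAA, either strand) was present in 30.8% of the C/EBPα-high single-locus bins (164 of 532, interval 26.9 to 34.9), in 42.0% of the shared bins (286 of 681, 38.3 to 45.8) and in 17.8% of the C/EBPβ-high bins (113 of 634, 14.9 to 21.0), against 9.28% of all bins. The full palindrome TTGCGCAA, which TTGCNNAA contains, was in 8.27% of C/EBPα-high, 11.5% of shared and 1.42% of C/EBPβ-high bins, against 0.0162% of all bins. The C/EBP-ATF element TTGCATCA was in 60 C/EBPα-high bins (11.3%, 8.72 to 14.3), 58 shared bins (8.52%, 6.53 to 10.9) and 11 C/EBPβ-high bins (1.74%, 0.869 to 3.08), against 0.617% of all bins. The intervals of C/EBPα-high and C/EBPβ-high bins did not overlap for any of these 3 elements. With a minimum of 10 reads, over all compared bins, those of the consensus did overlap (26.9 to 40.3 and 18.8 to 34.6).

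The GC box GGGCGG, which is common in GC-rich promoters, was in 18% of C/EBPα-high and 6.31% of C/EBPβ-high bins, with 2.01% of all bins, and so differed in the same direction as the C/EBP elements. The AP-1 site TGACTCA was in 3.57% of C/EBPα-high bins (2.16 to 5.52) and 6.78% of C/EBPβ-high bins (4.95 to 9.03), and the E-box CAGGTG in 15.2% (12.3 to 18.6) and 20.7% (17.6 to 24.0), with intervals that overlapped in both cases. The PU.1 element GAGGAAGT was in 4.51% and 4.26%, each above the 1.20% of all bins.

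**Figure D2:**
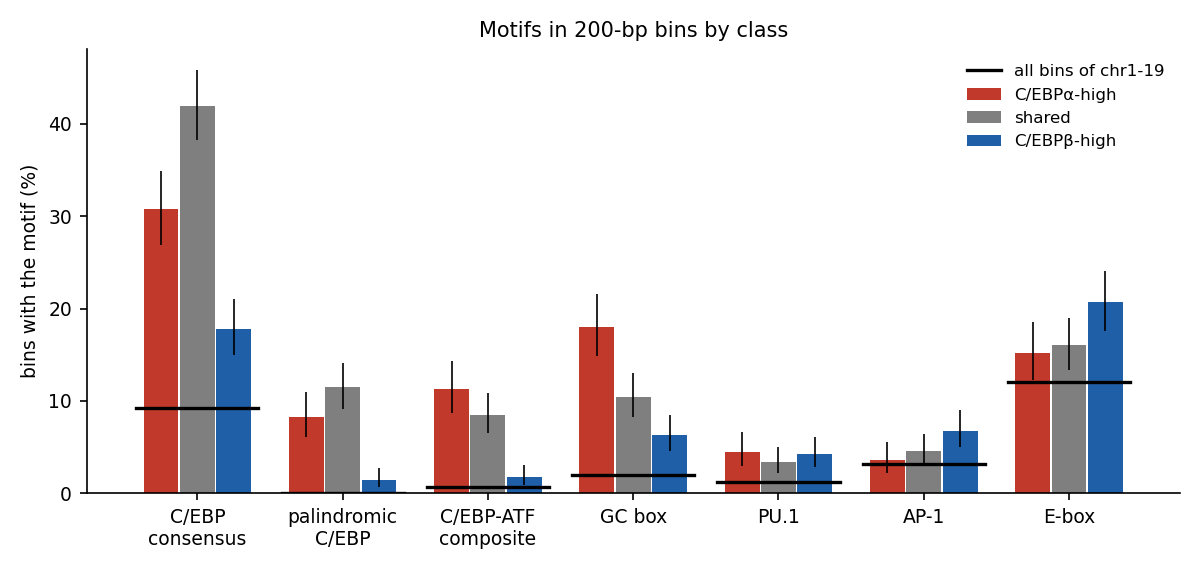
Share of single-locus bins with each element on either strand (vertical axis, percent) for C/EBPα-high (n = 532), shared (n = 681) and C/EBPβ-high (n = 634) bins. Bars carry exact 95% Clopper-Pearson intervals and black lines give the share of all bins, with the C/EBP-ATF composite at 11.3% of C/EBPα-high and 1.74% of C/EBPβ-high bins.

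Because the C/EBPα library had relatively more reads in GC-rich DNA, the element counts were also read within ranges of GC content. Among single-locus bins with at least 55% GC, 23 of the 42 bins with a C/EBP-ATF element were C/EBPα-high (54.8%, 38.7 to 70.2) and 1 was C/EBPβ-high. Of the 429 such bins with neither a C/EBP-ATF element nor the consensus, 155 were C/EBPα-high (36.1%) and 151 C/EBPβ-high (35.2%). Below 55% GC, 37 of 87 bins with a C/EBP-ATF element were C/EBPα-high (42.5%, 32.0 to 53.6) and 10 were C/EBPβ-high, whereas of 735 bins with neither element 159 (21.6%) were C/EBPα-high and 360 (49.0%) C/EBPβ-high. Bins with a C/EBP-ATF element were thus more often C/EBPα-high than bins without either element in the lower range, where the intervals did not overlap (18.7 to 24.8 for the latter), and in the upper range the intervals overlapped (31.6 to 40.9). Bins with the consensus alone were C/EBPα-high in 24.7% (20.6 to 29.1) in the lower range and 40.1% (31.9 to 48.9) in the upper. Both intervals overlapped those of bins with neither element. Their C/EBPβ-high shares, 23.7% (19.7 to 28.1) and 9.49% (5.15 to 15.7), were lower than in bins with neither element.

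Reads at each element were also counted with no threshold on reads, over all bins with known sequence that were not high in all 18 libraries. The 1930 bins with TTGCGCAA held 5.44 times the mean for C/EBPα (5.26 to 5.62) and 4.26 times for C/EBPβ (4.10 to 4.42), compared with 1.40 times for PU.1. The ratio of C/EBPα to C/EBPβ reads over these bins was 1.28 (1.22 to 1.34), compared with 1.17 (1.16 to 1.18) over the 240463 bins with the GC box GGGCGG, which is no C/EBP element. Of the other 15 forms of the consensus, TTGCGTAA followed with 2.28 and 1.87 times the mean and TTGCGAAA with 1.55 and 1.41. The remaining 13 lay between 0.803 and 1.23 times the mean for C/EBPα and between 0.847 and 1.23 for C/EBPβ. Over the 73799 bins with TTGCATCA the levels were 1.17 and 1.12 times the mean. Of these bins, 116 reached 7 C/EBPα reads and 57 reached 7 C/EBPβ reads. Among all bins, 0.0121% reached 7 C/EBPα reads and 0.0130% reached 7 C/EBPβ reads. More bins with C/EBPα than C/EBPβ at 7 reads were also found for the GC box (163 and 105). For the E-box CAGGTG the order was the reverse (190 and 236).

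Reads of both libraries were denser close to the elements than farther away. At the 177 consensus elements of C/EBPα-high bins, reads within 200 bp were 10.2 times denser than reads 600 to 1000 bp away for C/EBPα and 3.22 times denser for C/EBPβ. The mean 5′ end of C/EBPα reads was 51.8 bp before the element on the plus strand and 55.6 bp after it on the minus strand. At the 124 consensus elements of C/EBPβ-high bins the density was 5.87 times for C/EBPβ and 3.05 times for C/EBPα. The density of C/EBPα in C/EBPα-high bins and of C/EBPβ in C/EBPβ-high bins follows from the rule, which asked for 7 or more reads there, and is a description.

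C/EBPα-high bins lay at promoters more often. A protein-coding transcription start site (TSS) was within 1000 bp of 174 of 609 C/EBPα-high bins (28.6%, 25 to 32.3), of 21.6% of shared bins and of 143 of 722 C/EBPβ-high bins (19.8%, 17.0 to 22.9), against 2.36% of all bins. Over all promoters the libraries were close, with 1.75 times the mean reads for C/EBPα and 1.70 times for C/EBPβ in promoter bins. C/EBPα-high bins had a median GC content of 53%, and C/EBPβ-high bins of 50.5%.

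The compared bins formed 1854 sites, of which 470 were C/EBPα-high, 790 shared and 594 C/EBPβ-high. Of the 10 C/EBPα-high sites with the most C/EBPα reads, 9 lay within 1000 bp of a TSS, the exception being 1 in the repeated region at *Sfi1*. *Cotl1*, which encodes an actin-binding protein, had 61 C/EBPα and 25 C/EBPβ reads in a site centred at -121 bp from its TSS, and *Rad23b*, a DNA damage recognition factor, had 59 and 13 (ratio 4.54, 2.46 to 9.02). The RNA-binding protein gene *Hnrnph1* had 46 and 10 reads (ratio 4.60, 2.29 to 10.2), 829 bp downstream of the nearest TSS and in an intron. *Ndrg1* had 39 and 12 reads, the scramblase gene *Plscr4* 38 and 19, and the arginine methyltransferase gene *Prmt3* 32 and 14. All of these had a C/EBP consensus, and the unused C/EBPα reads at these 6 promoters were 61, 61, 29, 43, 39 and 43. *Ndrg1* was among the sites high in all 18 libraries. The remaining 3 had a C/EBP-ATF element and no consensus: *Iars*, the isoleucyl-tRNA synthetase gene, with 38 and 8 reads, *Chac1* with 36 and 16, and *Herpud1* with 33 and 12.

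Genes of the stress response were frequent next to C/EBPα-high bins. A compared bin inside the gene or within 10 kb of it was found at 7.36% of the 21418 protein-coding genes. A C/EBPα-high bin was found at 2.71% and a C/EBPβ-high bin at 2.91%. Long genes thus offered more bins than short ones. A list of 13 genes of the amino acid and ER stress response was chosen with earlier results of these data known. The shares of all genes are therefore no test of it. Of the 13 genes, 8 had a compared bin, 7 had a C/EBPα-high bin and 0 had a C/EBPβ-high bin. The last count was 4 with a minimum of 5 reads, and 1 with another random thinning, with all reads as deposited or with bins that start 100 bp later. *Ddit3*, which encodes CHOP, was counted in the list of C/EBP family genes and not among these 13, but is itself a stress gene. It had 23 C/EBPα and 3 C/EBPβ reads at -330 bp from the gene's start (ratio 7.67, 2.32 to 39.9) and 33 unused C/EBPα reads. The adjacent bin had 9 and 10.

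*Chac1*, which encodes a glutathione-degrading enzyme, had 15 and 4 reads just upstream of the gene (ratio 3.75, 1.19 to 15.5), next to a shared bin with 21 and 12. *Herpud1*, a component of ER-associated degradation, had 19 and 4 (ratio 4.75, 1.58 to 19.2), next to a shared bin with 14 and 8. *Trib3*, a pseudokinase gene, had 11 and 3 reads in 1 bin and 7 and 2 in the next, and *Atf5*, a transcription factor gene, had 20 and 9. That bin lay at -2472 bp from the start of *Atf5* and 694 bp from a TSS of *Nup62*, and the *Atf5* promoter itself had 13 and 12 reads. The interval of the ratio included 1 for *Trib3* and *Atf5*, as it did for the asparagine synthetase gene *Asns* (9 and 3), the sestrin gene *Sesn2* (8 and 3) and the chaperone gene *Hspa5* (7 and 2). *Sesn2* had only 1 unused C/EBPα read and *Hspa5* 3, whereas *Trib3* had 9 and 11 and *Asns* 11. At *Atf3* the bin at the TSS was shared, with 11 and 9 reads. With all C/EBPα reads scaled to the depth of C/EBPβ, 4 of the 13 genes had a C/EBPα-high bin and 1 had a C/EBPβ-high bin.

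Over whole promoters, with no threshold, the same list leaned less. Reads within 1000 bp of any TSS were more numerous for C/EBPα at 10 of the 13 genes and for C/EBPβ at 3, with 274 and 222 reads in sum (ratio 1.23, 1.03 to 1.48), where 46.3% of all 21410 promoters had more C/EBPα and 40.2% more C/EBPβ reads. The median difference was 3 reads, compared with 0 over all promoters. With all C/EBPα reads scaled the counts were 9 and 4 genes. The ratio over all bins with the GC box GGGCGG, 1.17, lay within the interval of this list. Promoters were not matched for GC content, and its part in the difference was not tested. The interval of the ratio lay above 1 at *Chac1* (51 and 26) and *Herpud1* (42 and 21) and below 1 at *Ddit4* (9 and 22), an inhibitor of mTORC1, next to 2.18% and 1.93% of all promoters.

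**Figure D3:**
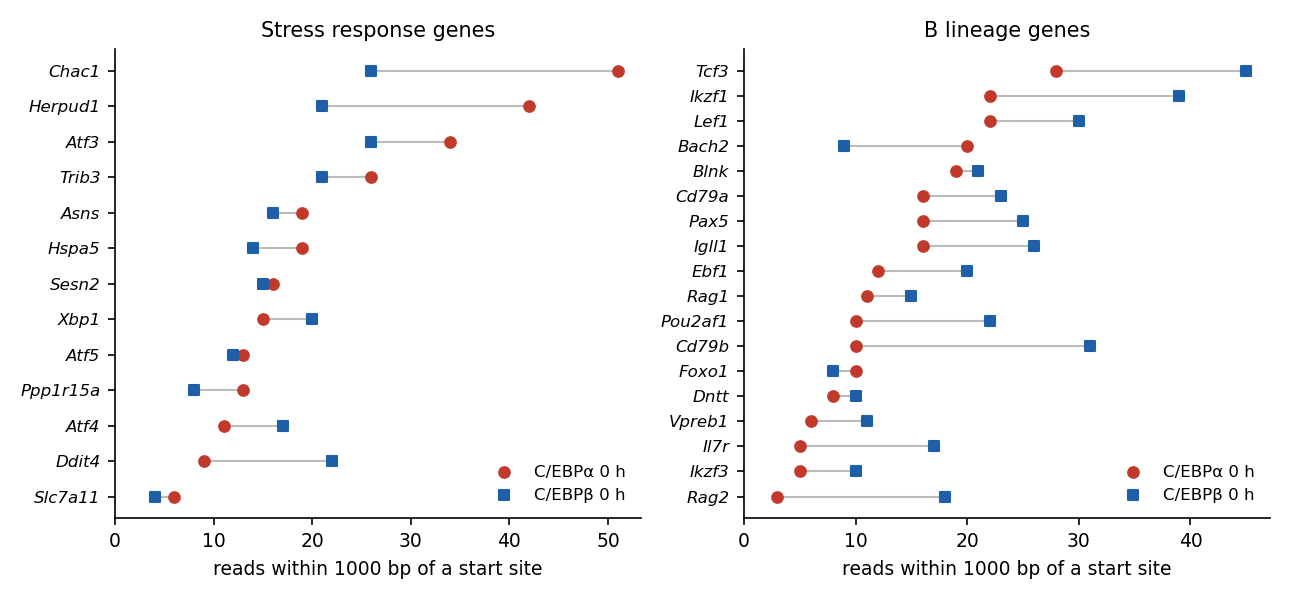
Reads at equal depth within 1000 bp of a transcription start site (horizontal axis) for the 13 stress response genes and 18 of the B lineage genes (vertical axis), with C/EBPα 0 h as red circles and C/EBPβ 0 h as blue squares, joined by a line for each gene. Among the 13 genes on the left *Chac1* and *Herpud1* have the most C/EBPα reads (51 and 42), and on the right 16 of the 18 genes shown have more C/EBPβ than C/EBPα reads.

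B lineage genes leaned the other way. A list of 19 genes that mark B cell precursors or act in them was chosen with earlier results of these data known. Of these genes 7 had a C/EBPβ-high bin within 10 kb, next to 2.91% of all protein-coding genes. These bins included those of *Pax5*, *Cd79a*, *Pou2af1*, *Tcf3*, *Ikzf1* and *Il7r*. Each of these bins had 7 or 8 C/EBPβ and 1 to 3 C/EBPα reads, so that they stood at the threshold, and none had 10 reads. The interval left out equal reads at *Ikzf1* alone (1 and 8 reads). That bin lay 92094 bp from the start of *Ikzf1*, beyond the gene's end, and its nearest TSS was of *Fignl1*. The bin of *Pax5* lay 13818 bp from the gene's start. PU.1 also had 7 or more reads in the bins of *Il7r* (53) and *Ikzf1* (22). *Igll1* and *Vpreb1*, which encode the surrogate light chain and lie next to each other, share 1 C/EBPα-high bin with 7 and 3 reads, and *Dntt*, the terminal transferase gene, had a shared bin with 6 and 8. Over whole promoters C/EBPβ had more reads at 17 of the 19 genes, next to 40.2% of all promoters. The count was also 17 with all C/EBPα reads scaled. In sum C/EBPβ had 398 reads compared with 251 for C/EBPα (ratio 1.59, 1.35 to 1.86). *Rag2*, a subunit of the V(D)J recombinase, had 3 C/EBPα and 18 C/EBPβ reads, *Il7r*, the interleukin 7 receptor, 5 and 17, *Cd79b*, a chain of the B cell receptor, 10 and 31, and *Ikzf1*, which encodes Ikaros, 22 and 39. At these 4 the interval of the ratio of C/EBPα to C/EBPβ lay below 1. Over all promoters the interval of that ratio lay below 1 at 1.93%. *Bach2* (20 and 9) and *Foxo1* (10 and 8) had more C/EBPα reads.

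The B lineage promoters also had PU.1 reads, 5.57 times the mean bin at 0 h, compared with 3.83 times for C/EBPβ and 2.48 times for C/EBPα. In the later libraries they held 3.21 times the mean for C/EBPβ and 3.95 times for C/EBPα at 3 h, and 3.25 and 2.78 times at 48 h. The stress response promoters held 4.98 times for C/EBPα and 3.99 times for C/EBPβ at 0 h, 8.23 times for C/EBPα at 12 h, and 5.49 times for C/EBPα and 10.7 times for C/EBPβ at 48 h. Over all protein-coding promoters, with all reads of each library and every bin that overlaps the 1000 bp on either side of a TSS, the values at 0 h were 1.79 times for C/EBPα, 1.76 for C/EBPβ and 2.28 for PU.1, and at 48 h 2.06 for C/EBPα and 2.09 for C/EBPβ. At 3 h all promoters held 2.01 times for C/EBPα and 1.63 for C/EBPβ, and at 12 h 2.53 times for C/EBPα.

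The remaining lists differed among themselves. Their counts stand next to 7.36% of all protein-coding genes with a compared bin within 10 kb. A C/EBPα-high bin was found at 2.71% of all genes and a C/EBPβ-high bin at 2.91%. Among the 7 genes of the C/EBP family and partners found in the annotation, *Ddit3* alone had a compared bin. *Cebpa* had 5 C/EBPα and 5 C/EBPβ reads over its 14 bins, and *Cebpb* had 7 and 3 over its 8 bins. Of 11 AP-1 and Maf genes, *Fosb* had a C/EBPβ-high bin at its start (3 and 13 reads, C/EBPβ over C/EBPα 4.33, 1.19 to 23.7), *Junb* a C/EBPα-high bin (11 and 4) and *Fosl2* a shared bin (4 and 7). The *Fosb* bin had 8 unused C/EBPα reads, more than the 3 thinned reads behind its call and interval. Of 16 signalling feedback genes 3 had compared bins, and *Il6ra*, the interleukin 6 receptor, had 8 and 2 reads next to a shared bin with 14 and 14. *Zfp36*, an mRNA-decay factor gene, had a bin with 8 and 1 and another with 1 and 7, and the kinase gene *Pim1* had 0 and 7. Of 27 myeloid genes 6 had compared bins: *Runx1* had 2 C/EBPα-high bins (16 and 7, 7 and 1), *Irf8* a C/EBPβ-high bin (2 and 7), and *Myb*, *Il1b* and *Egr1* shared bins. The *Runx1* bin with 16 and 7 reads lay in an intron, 110411 bp from the gene's start. Over whole promoters, the ratio of C/EBPα to C/EBPβ reads was 1.41 (1.11 to 1.79) for the AP-1 and Maf list, 1.36 (1.01 to 1.82) for the C/EBP family, 0.922 (0.766 to 1.11) for the signalling list and 0.740 (0.645 to 0.849) for the myeloid list, in which *Sfpi1* gave 53 of 368 C/EBPα and 185 of 497 C/EBPβ reads. The ratios of the AP-1 and Maf list and of the C/EBP family were thus no lower than the 1.23 of the stress response list, with intervals that overlapped. Without *Sfpi1* the myeloid promoters held 2.37 times the mean bin for C/EBPα and 2.30 times for C/EBPβ. *Myb*, a progenitor transcription factor gene, had the palindrome printed above in an intronic bin with 18 and 22 reads.

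*Sfpi1*, which encodes PU.1, held the C/EBPβ-high site with the second most C/EBPβ reads (35 C/EBPα and 185 C/EBPβ reads over 12 bins, C/EBPβ over C/EBPα 5.29, 3.67 to 7.82). Within chr2:90921001-90938600, 17 of 19 compared bins were C/EBPβ-high and 0 C/EBPα-high, with 271 C/EBPβ and 60 C/EBPα reads. The reads formed blocks: runs of C/EBPβ reads with no gap over 100 bp covered 797 bp (46 reads), 462 bp (30 reads), 1797 bp (158 reads) and 355 bp (30 reads), with 49.4% to 53.3% of reads on the plus strand. The longest run, chr2:90922553-90924349, lies at the upstream annotated start, and the last, chr2:90936653-90937007, at the start of the shorter transcripts. An upstream regulatory element of the gene is known in the region of the longest run.

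The 19 bins were divided by their thinned C/EBPα reads at 0 h. In 3 bins where C/EBPα also had 7 or more reads, C/EBPβ stood at 45.6 and C/EBPα at 31.6 reads per 10000000 and bin, and the PU.1 library at 51.3. In the other 16 bins, the plateau bins, C/EBPβ had 7 to 20 reads each, 32.1 per 10000000 on average or 39.7 times its mean bin, and C/EBPα had 3.18 per 10000000. The 4 later C/EBPβ libraries had 5.53 to 10.1 per 10000000 in these 16 bins, the later C/EBPα libraries 2.24 to 13.0, and the PU.1 libraries 7.08 at 0 h and up to 14.8 at 12 h. Over the last run, C/EBPα at 12 h had 222 reads per 10000000 and kb, compared with 203 for C/EBPβ at 0 h. The 3 peak bins had 40.5 to 139 per 10000000 in the 4 later C/EBPβ libraries. The 16 bins were compared because C/EBPβ at 0 h had 7 or more reads there, so its higher level at 0 h follows from the rule and is a description. The C/EBPα difference at 0 h between the 3 and the 16 bins likewise follows from how they were divided. The averages also hide uneven bins in some later libraries. With all reads counted, C/EBPα at 60 min had a median of 4.5 reads in the 16 bins and 107 in the highest. Consensus elements were present in peak bins with 29 and 12 C/EBPβ reads and in plateau bins with 10 and 17. Whether the plateau reads come from bound chromatin was not tested, and the counts of the site, of the C/EBPβ-high bins at the gene and of the myeloid promoters include them. The *Sfpi1* bins lay in a dense window and are not among the single-locus bins.

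**Figure D4:**
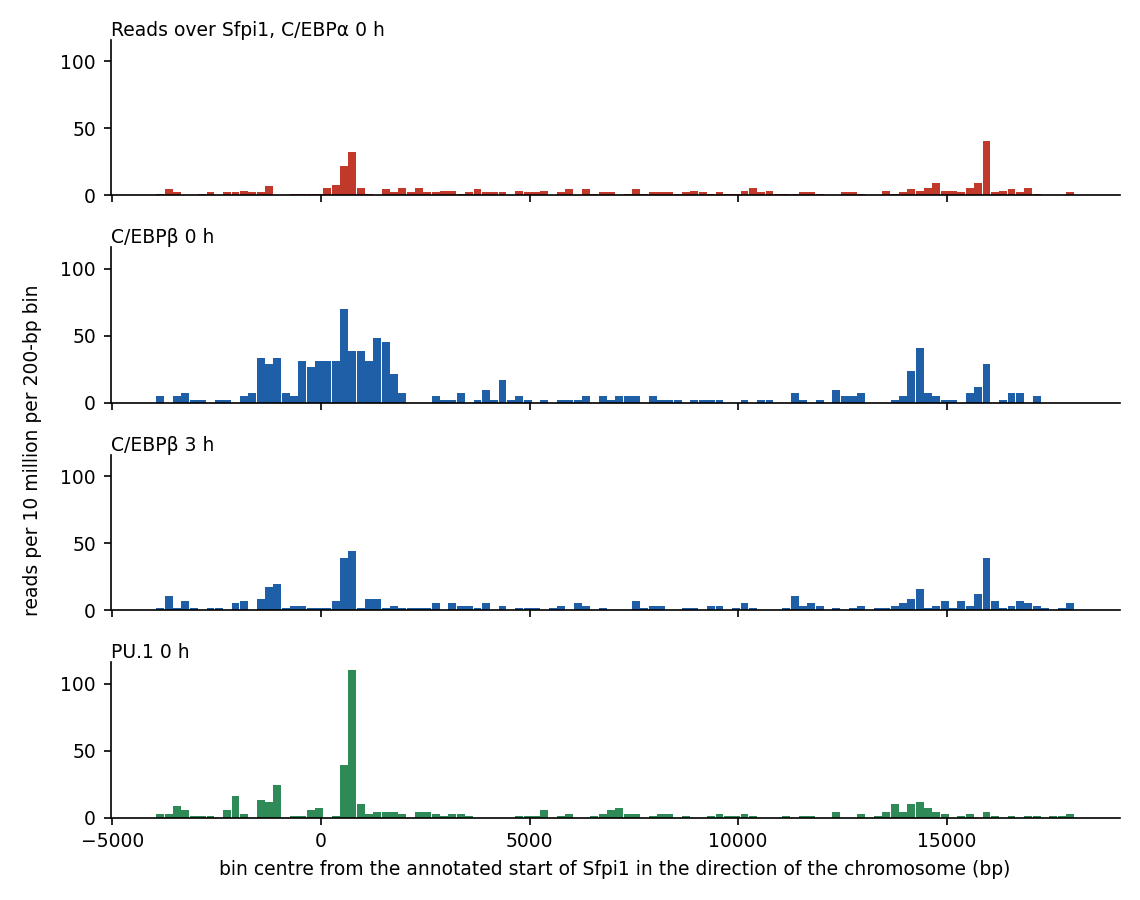
Reads per 10000000 per 200-bp bin (vertical axis, same scale in each panel) by distance of the bin centre from the annotated start of *Sfpi1* (horizontal axis, bp) in the C/EBPα 0 h, C/EBPβ 0 h, C/EBPβ 3 h and PU.1 0 h libraries. The C/EBPβ 0 h panel has raised runs of bins, which helped to choose the bins compared, that are lower in the other panels shown, while the peak just downstream of the start is also present for C/EBPα 0 h and C/EBPβ 3 h.

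Histone genes were the other large C/EBPβ-high group, and were picked out after their values had been seen. Of the 10 C/EBPβ-high sites with the most C/EBPβ reads, 2 lay at *Hist2h4* (24 C/EBPα and 76 C/EBPβ reads) and *Hist2h2bb* (14 and 57) on chromosome 3. Within 1000 bp of the 67 replication-dependent histone genes lay 32 compared bins, of which 30 were C/EBPβ-high, 2 shared and 0 C/EBPα-high, and 0 of the 32 had a C/EBP consensus. At the promoters of these genes C/EBPβ had 1431 and C/EBPα 399 reads (ratio 3.59, 3.21 to 4.02). C/EBPβ had more reads at 57 of the 67, next to 40.2% of all promoters. Read density over the histone genes and 1000 bp on either side was 3.74 times the mean bin in C/EBPβ at 0 h and 3.42 times at 3 h, then 1.96 to 2.38 times in the later C/EBPβ libraries. It was 1.22 times in C/EBPα and 1.45 times in PU.1 at 0 h. In the later libraries it was 0.918 to 2.04 times for C/EBPα and up to 2.03 times for PU.1, so that the ranges of C/EBPβ from 12 h on and of the other antibodies overlapped.

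The remaining C/EBPβ-high sites at the top were intergenic and less steep. The site with the most C/EBPβ reads, 241 compared with 109, lay at -23480 bp from the TSS of *Gm5614* and belonged to the bins high in all 18 libraries. The sites nearest *Tbl1xr1*, a corepressor subunit gene (18 C/EBPα and 39 C/EBPβ reads), *Rcn1*, an ER calcium-binding protein gene (15 and 35), and *Klrb1b*, a natural killer cell receptor gene (13 and 30), had a C/EBP consensus, with ratios of C/EBPβ to C/EBPα of 2.17 to 2.33. *Zfp608* had 18 and 37 reads, a consensus and at least 1 bin high in all 18 libraries, and *Cdkn2aipnl* had 12 and 29 reads. The unused C/EBPα reads at *Tbl1xr1* and *Rcn1* were 29 and 25, above the thinned counts. The 10 shared sites with the most reads all lay in the dense windows, at *Pgk2*, *Gm10800*, *Gm10801* and *Sfi1*, where all antibodies gave many reads.

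PU.1 reads at 0 h differed between the classes, and the order of the classes depended on the bins kept. With the PU.1 library thinned to the same depth, 7 or more reads were present in 18.2% of C/EBPα-high single-locus bins (15 to 21.8), 16.9% of shared bins (14.1 to 19.9) and 23.3% of C/EBPβ-high bins (20.1 to 26.8), all far above the 0.259% of all bins. With the repeated and densely covered bins kept in, shared bins reached 36.6% (33.7 to 39.6). C/EBPα-high bins then had 23.6% (20.3 to 27.2) and C/EBPβ-high bins 25.5% (22.3 to 28.8).

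The later libraries, which took no part in calling the classes, placed the C/EBPα-high bins above the C/EBPβ-high bins for both factors. The median C/EBPα reads per 10000000 in C/EBPα-high single-locus bins were 15 at 0 h, 7.63 at 10 min, 22.1 at 3 h and 11.6 at 48 h. In C/EBPβ-high bins the C/EBPα medians were 4.62, 3.71, 10.1 and 5.15. For C/EBPβ, C/EBPα-high bins had 4.80 at 0 h, 10.6 at 3 h and 26.3 at 48 h, whereas C/EBPβ-high bins had 16.8, 8.79 and 8.09. The 0 h values made the classes, so the changes from 0 h are partly set by the rule. The later libraries also helped to leave out the bins high in all 18 libraries. Over all 2407 compared bins the C/EBPβ medians were 12.3 at 3 h and 26.3 at 48 h in C/EBPα-high bins and 8.79 and 9.10 in C/EBPβ-high bins, and the C/EBPα medians at 48 h were 12.9 and 5.15. The C/EBPβ means over these bins at 3 h were 15.6 in C/EBPα-high and 15.5 in C/EBPβ-high bins. Shared bins had the highest C/EBPβ medians after 0 h, from 21.1 at 3 h to 48.5 at 48 h.

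At equal depth, 7 or more C/EBPβ reads at 3 h were present in 34.8% of C/EBPα-high bins (30.7 to 39.0) and 29.7% of C/EBPβ-high bins (26.1 to 33.4). These intervals overlapped. At 48 h the shares were 60.0% (55.7 to 64.2) and 33.4% (29.8 to 37.3), against 0.146% of all bins. At the 10 C/EBPα-high sites with the most C/EBPα reads, C/EBPβ reads per 10000000 at 48 h ran from 60.7 at *Sfi1* to 271 at *Cotl1*. *Iars* had 182, *Rad23b* 174 and *Prmt3* 168. These values are sums over sites that differ in their number of bins. At *Sfpi1* the site of 12 bins described above had 249, and the smaller site of 3 bins upstream of it, chr2:90921001-90921600, had 26.3. *Rcn1* and *Klrb1b*, which were C/EBPβ-high with a consensus, had 220 and 261. Values at the 10 C/EBPβ-high sites with the most C/EBPβ reads ran from 14.2 at *Cdkn2aipnl* to 690 at *Gm5614*. These are single libraries at each time, and the differences between times have no replicate check.

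**Figure D5:**
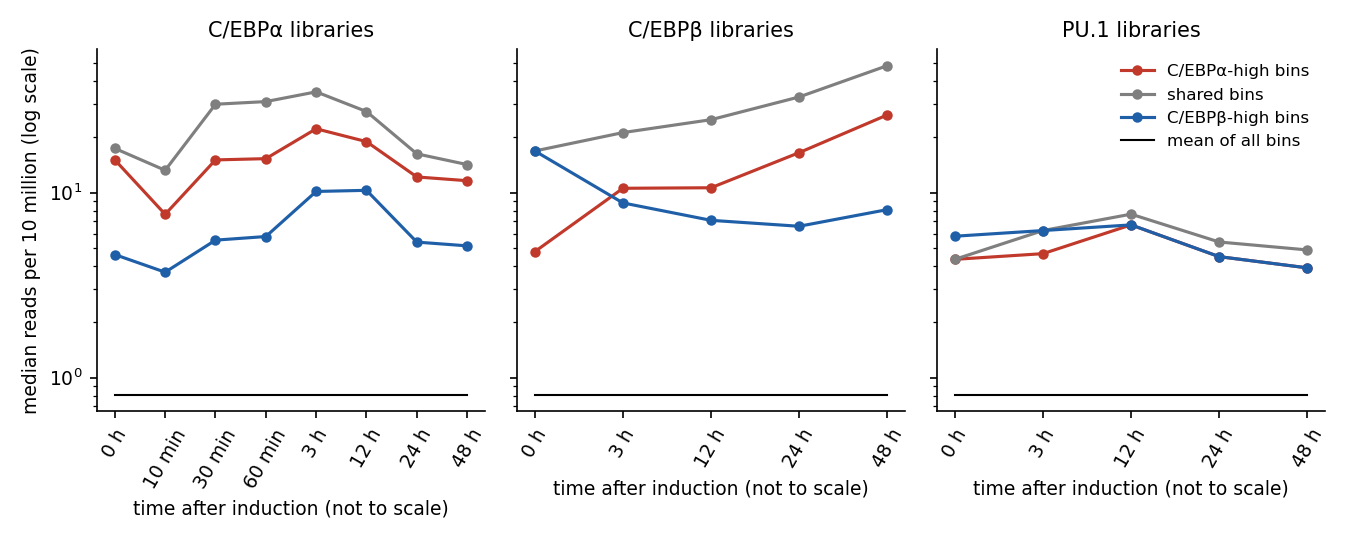
Median reads per 10000000 per bin (vertical axis, log scale) in C/EBPα-high, shared and C/EBPβ-high single-locus bins for each library of the time course (horizontal axis, times in order and not to scale), with the mean of all bins as a black line. After 0 h the C/EBPα-high bins lie above the C/EBPβ-high bins in the C/EBPα and C/EBPβ libraries, and the PU.1 medians of the classes lie close together.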

How the data were processed

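The authors aligned the reads to mouse mm9 without mismatches by ELAND or Bowtie, kept uniquely aligning reads, removed identical ones, and deposited 1 line per read with chromosome, start, end and strand. The deposited values are thus read positions, and the lines over a region are a raw count with no normalization. The aligner of each library is not given in the sources used here. The submitters' processing notes also name HOMER. In the 0 h library of PU.1, 1 line without a position was dropped.

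One read per position and strand was kept on chromosomes 1 to 19 (duplicates were 0.152% of C/EBPα and 0% of C/EBPβ), 5′ ends were moved 75 bp inward, and C/EBPα and PU.1 were thinned at random, with a fixed seed, to the 4169425 reads of C/EBPβ. Counts were taken in 200-bp bins. TSSs and genes were those of GENCODE vM1 on the same build, with protein-coding genes only, and coordinates count from 1. Shares carry exact Clopper-Pearson intervals, sums over bins exact Poisson intervals, and ratios the exact binomial interval of a read's share, all at 95% and for counting error only. At this depth a bin with 0 reads allows up to 3. The class rule was also run on simulated data. No outcome of that run is given here, so it does not show how well calls at the lowest read counts hold. Python 3.11.15, numpy 2.4.6, scipy 1.17.1 and pandas 2.3.3 were used.

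The members, the gene lists and the elements were chosen with earlier results of these data known. Sites were runs of compared bins at most 200 bp apart. Named are the 10 sites of each class with the most reads (of C/EBPα, of C/EBPβ, or of both for shared sites), by their nearest TSS, and listed genes with a compared bin within 10 kb (7 of the 8 listed C/EBP family genes and partners were in the annotation). The promoter values of other listed genes (*Rag2*, *Cd79b*, *Ddit4*, *Bach2*, *Foxo1*), of *Cebpa* and *Cebpb*, and the histone genes, were named after their values were seen. Some items are not reported here.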

Additional observations from a re-analysis of the deposited data

How the results depend on the processing

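No paired analysis was possible because each factor had 1 library at 0 h. Of the 179 recomputed values (some of the results and alternatives were added after seeing the data), 118 stayed within 1.5 times the count or within the interval of the share. The consensus and promoter shares were higher in C/EBPα-high than in C/EBPβ-high bins under each of the 12 alternatives, and the composite (C/EBP-ATF) share under each of the 11 tried (it was not computed for bins that start 100 bp later). The PU.1 share was higher in C/EBPα-high bins under 4 of 12, so its order depended on the setting. With a minimum of 5 reads, 14538 bins were compared, 1428 of them C/EBPα-high and 1919 C/EBPβ-high; with 10 reads these were 857, 204 and 130. The consensus shares of the C/EBPα-high and C/EBPβ-high bins were then 21.8% and 13.2% at 5 reads and 33.3% and 26.2% at 10, the PU.1 shares 15.9% and 19.5%, then 33.8% and 30.0%. At 5 reads the promoter and composite shares of C/EBPα-high bins were 23.2% and 6.23%, and at 10 reads 34.3% and 16.2%, with 26.2% and 3.08% in C/EBPβ-high bins. B lineage genes with a C/EBPβ-high bin numbered 11 at 5 reads and 0 at 10, where stress response genes with a C/EBPα-high bin numbered 4. Stress response genes with a C/EBPβ-high bin numbered 4 at 5 reads and 0 at 10. With all C/EBPα reads scaled, 275 bins were C/EBPα-high and 677 C/EBPβ-high, the former with consensus, promoter and composite shares of 33.5%, 35.6% and 15.3%, and 4 stress response genes. A fold of 4 left 33 C/EBPα-high and 23 C/EBPβ-high bins, with consensus shares of 42.4% and 8.70%, promoter shares of 45.5% and 43.5%, PU.1 shares of 18.2% and 13.0%, composite shares of 24.2% and 0%, 1 stress response gene and 0 B lineage genes. Calling only bins whose interval left out equal reads gave 168 and 193 bins, a consensus share of 33.9% in the former, promoter and PU.1 shares of 23.8% and 22.3% in the latter, 2 stress response genes and 1 B lineage gene. The PU.1 share of C/EBPα-high bins was 19.8% without the bins high in all 18 libraries and 18.2% without the dense windows as well. Intervals of the shares were wider with a minimum of 10 reads or a fold of 4, which left far fewer bins, and narrower with a minimum of 5. The cause of the shifts was not tested. Another random thinning gave 646 C/EBPα-high and 689 C/EBPβ-high bins. Over all compared bins, 7 or more C/EBPβ reads at 3 h were present in 33.5% of C/EBPβ-high and 37.6% of C/EBPα-high bins, and at 48 h in 36.3% and 62.2%.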

Other observations

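Further C/EBPα-high sites at promoters, ranked after those named by the rule and picked after their values were seen, were those of *Hipk3*, a nuclear kinase gene (32 C/EBPα and 13 C/EBPβ reads), *Acadsb*, an acyl-CoA dehydrogenase (27 and 9), and *Eif4a1*, the translation initiation helicase (26 and 10). The unused C/EBPα reads at these 3 sites were 40, 28 and 32. Near *Cdkn1a*, a cell cycle inhibitor gene, a site at -11924 bp had 30 and 14 reads and the C/EBP-ATF element TTGCATCA.

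The element TCCCNNGGG, which the B cell factor Ebf1 binds, was in 8.27% of C/EBPα-high, 11.3% of shared and 8.68% of C/EBPβ-high single-locus bins, against 1.87% of all bins. The CCAAT element CCAATCA was in 2.82%, 2.50% and 2.37%, against 2.50% of all bins. Exons held 13.6% of the C/EBPα-high and 10.4% of the C/EBPβ-high bins, against 2.69% of all bins, and the intervals of the classes overlapped (11 to 16.6 and 8.26 to 12.8).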
